A study of Mus musculus with 6 samples.

Results

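Chemokine ligands other than the Ccl21 genes were measured in lymphatic endothelial cells sorted from the meninges of old and young mice. The set was given as a list of 32 mouse genes, taken by symbol from a table of 22964 genes, and 29 of the 32 were found there. The levels of Ccl20, Cxcl3 and Xcl1 were not analysed here. The old group was 3 samples from male mice aged 20 to 24 months, and the young group was 3 samples from male mice aged 2 to 3 months. All animals were untreated wild type C57BL/6J mice supplied by Jackson Labs or the NIH/NIA, and which supplier each sample came from is not given. Cells were gated as negative for the leukocyte protein CD45 and positive for CD31 and podoplanin, and their RNA was amplified before sequencing. Whether a sample was 1 animal or a pool is not stated, so every p-value reflects the scatter among these 6 samples, part of which could be technical.

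Chemokines are small secreted proteins that draw leukocytes along a gradient by binding G protein-coupled receptors. They are named by the spacing of their first cysteines as CC, CXC, CX3C or XC ligands. Lymphatic endothelium is best known for secreting CCL21, which brings dendritic cells with CCR7 into the vessel, and it also makes CXCL12 and, when inflamed, other ligands. Some chemokines are made steadily by stromal and endothelial cells, and others are induced by interferon or by NF-kB, or come mainly from macrophages. Atypical receptors bind chemokines without signalling through G proteins and remove them.

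Levels are estimated counts scaled to library size (CPM), with library sizes adjusted by the TMM method. The depth was 14285794 to 20886836 estimated counts in old samples and 15733100 to 21043945 in young samples. All 6 samples held lymphatic endothelial markers: 6 genes (Prox1, Lyve1, Flt4, Pdpn, Mmrn1 and Reln) summed to 10506 to 12422 CPM in old samples and to 7167 to 9157 CPM in young samples. Transcripts of cells that the gate should remove were present too. A list of 12 macrophage markers summed to 812, 2118 and 1454 CPM in old samples 1 to 3, against 819.7, 3009 and 4194 CPM in young samples 1 to 3. Mrc1, which lymphatic endothelium also expresses, made up much of the sums in old samples 1 and 3 and young sample 1, at 679, 739 and 401 CPM. Without Mrc1 the sums were 133, 1704 and 715 CPM in old samples, against 419, 2557 and 3833 CPM in young samples. Tyrobp was at 0 in old sample 2, and no other macrophage marker was at 0 in any sample. A list of 8 fibroblast markers summed to 2587 to 3069.9 CPM in old samples and to 5334 to 8199 CPM in young samples, with none at 0. In bulk samples such as these, fewer cells of a type and less RNA per cell cannot be told apart.

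Of the 29 ligands, 23 passed the filter on low counts and were tested. Ccl17, Ccl22, Ccl25, Cxcl2, Cxcl13 and Cxcl15 did not pass and were not tested. Between 23 and 25 ligands had at least 1 count in an old sample, and between 23 and 28 in a young sample. No ligand passed the test between ages: edgeR's quasi-likelihood test, adjusted over all 15394 genes tested, called 0 of 23 ligands, with the smallest adjusted p = 0.888. The background was the same, since 0% of all genes tested were called. DESeq2 and limma-voom also called 0 of the 23 ligands, while they called 0.844% and 0.0195% of all genes. At an unadjusted p under 0.05, edgeR counted 1 ligand, Cxcl12, which was higher in old cells, beside 5.56% of all genes tested (2.86% of all genes higher and 2.70% lower in old cells). The 23 log2 fold changes, old over young, had a median of 0.17 and an interquartile range of −1.10 to 0.88, against a median of 0.02 and an interquartile range of −0.62 to 0.60 over all tested genes. Of the 23, 13 were positive, beside 51.0% of all tested genes, and 10 negative, beside 49.0%. All 3 old samples lay above all 3 young samples for 4 ligands, where the background was 5.56% of genes, and below them for 2 ligands, where it was 6.44%.

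**Figure D1:**
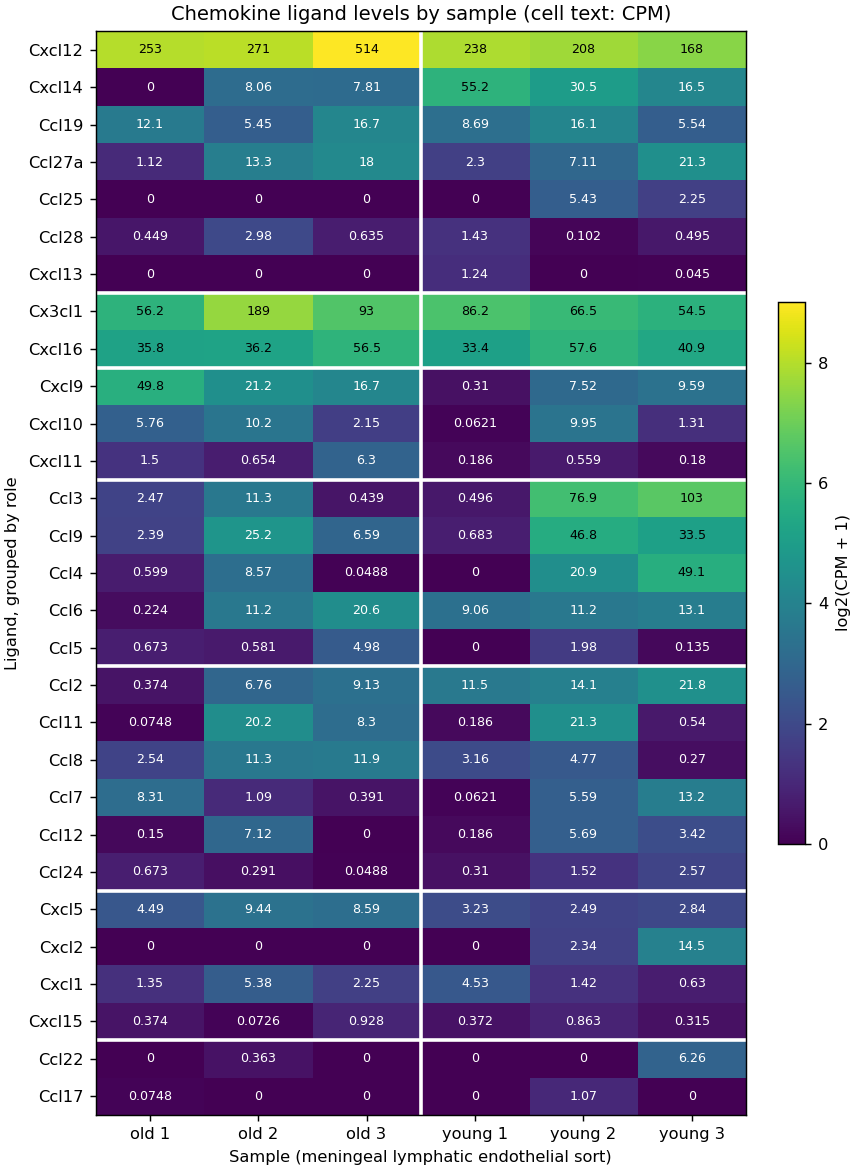
Levels of the 29 ligands in each sample, with rows grouped by role and columns by sample, old samples on the left. Colour is log2(CPM + 1) and the text in each cell is the CPM; Cxcl12 is the brightest row in every sample, and Ccl3 reaches 76.9 and 103 CPM in young samples 2 and 3.

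Cxcl12 (ENSMUSG00000061353; chromosome 6, 117168535 to 117181367, plus strand, in GRCm38), the ligand of CXCR4 made by stromal and endothelial cells, had the highest CPM of the ligands in every sample. It had 253, 271 and 514 CPM in old samples 1 to 3, against 238, 208 and 168 CPM in young samples 1 to 3. Every old sample was above every young sample, but old samples 1 and 2 were close to young sample 1 and old sample 3 stood well above the rest. Means were 346 ± 146 CPM in old cells and 205 ± 35.1 CPM in young cells (SD, n = 3 each). The log2 fold change was 0.76 (SE 0.33, 95% interval 0.02 to 1.5), with edgeR unadjusted p = 0.0460 and adjusted p = 0.888. Without old sample 3 it was 0.36, and the unadjusted p was above 0.05 without that sample or without any 1 of the 3 young samples. The biological coefficient of variation of Cxcl12 was 35.5%, where the median over the 23 tested ligands was 107% and over all genes 84.2%. The fitted trend for genes of its level was 39.2%. The estimate for each gene is drawn toward that trend in the fit, so their closeness cannot show whether its variation was ordinary. The fibroblast markers, from another cell type that makes Cxcl12, summed to lower values in every old sample than in any young one. Blood endothelial markers (6 genes) summed to 1165 to 1413 CPM in old samples and 583 to 640.4 CPM in young samples. Markers shared by all endothelium (4 genes) summed to 1930.4 to 2549 CPM in old samples and 1436 to 1597 CPM in young samples. Both endothelial sums were higher in every old sample, as Cxcl12 was. Not every member followed its sum: 4 of the 6 blood endothelial markers were higher in every old sample, and 2 overlapped. Of those 2, Slco1c1 had 0.150, 30.2 and 0 CPM in old samples, against 0, 6.96 and 2.34 CPM in young samples. Flt1 had 178, 391 and 421 CPM in old samples, against 220.1, 243 and 244 CPM in young samples. The sum of the lymphatic endothelial markers, given earlier, was also higher in every old sample than in any young one. The part of any of these cell types in the Cxcl12 levels was not tested.

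Per length, Cxcl12 was first by its mean in old cells. Divided by the length of its exons, it had 42.4 CPM per kb in old cells and 25.1 CPM per kb in young cells. Cx3cl1 came next in old cells at 28.7 CPM per kb, followed by Ccl8 at 16.8, Cxcl16 at 14.2 and Ccl19 at 13.2 CPM per kb. The 4 ligands after Cxcl12 overlapped each other between old samples, and Cx3cl1 overlapped Cxcl12 too, so this order is not firm. In old sample 2 Cx3cl1 had 48.1 CPM per kb, above the 33.2 CPM per kb of Cxcl12. In young cells Ccl3 was first by its mean at 78.6 CPM per kb and Ccl4 second at 35.3 CPM per kb, ahead of Cxcl12. Those means came from young samples 2 and 3, since young sample 1 had 0.648 CPM per kb of Ccl3 and a count of 0 for Ccl4. Cxcl12 took 26.5%, 14.1% and 30.0% of the summed CPM per kb of all ligands in old samples 1 to 3, against 22%, 7.74% and 5.70% in young samples 1 to 3.

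**Figure D2:**
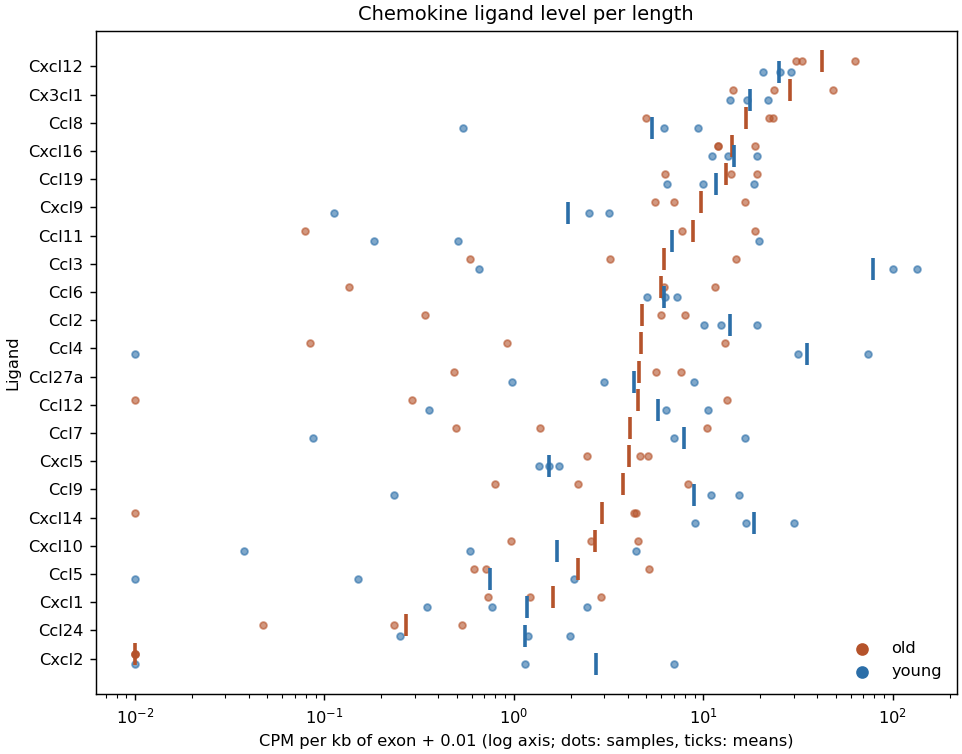
Level of each ligand per kb of exon on a log axis after adding 0.01, for ligands with a mean of at least 1 CPM per kb in either age, ordered by the old mean. Dots are samples and ticks are means; Cxcl12 leads in old cells at 42.4 CPM per kb, and Ccl3 leads in young cells at 78.6 CPM per kb with 1 young sample under 1.

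The 250 bases before the transcription start are shown for 4 ligands, chosen as examples with the results known. They are Cxcl12, the most abundant by CPM, Cxcl14, with the most negative fold change of the tested homeostatic ligands, and the CXCR3 ligand neighbours Cxcl9 and Cxcl10. Sequences are from RefSeq on GRCm38.p6, 5′ to 3′ on the strand of the gene. Capitals mark matches on either strand to an interferon-stimulated response element (ISRE: GAAA, any 2 bases, GAAA) or to an NF-kB type site (GGGA, any 2 bases, T, any 1 base, CC).
Cxcl12 (chr6:117168285-117168534, plus strand): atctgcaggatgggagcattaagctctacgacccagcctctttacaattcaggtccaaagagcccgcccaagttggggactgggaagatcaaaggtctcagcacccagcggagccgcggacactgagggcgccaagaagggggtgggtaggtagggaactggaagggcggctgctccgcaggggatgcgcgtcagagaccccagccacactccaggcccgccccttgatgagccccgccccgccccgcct
Cxcl14 (chr13:56296552-56296801, minus strand): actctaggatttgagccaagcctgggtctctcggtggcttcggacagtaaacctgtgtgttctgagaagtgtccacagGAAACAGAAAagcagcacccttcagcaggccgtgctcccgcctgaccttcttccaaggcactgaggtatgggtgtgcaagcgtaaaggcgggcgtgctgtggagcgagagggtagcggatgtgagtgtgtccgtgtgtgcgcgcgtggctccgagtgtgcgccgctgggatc
Cxcl9 (chr5:92328080-92328329, minus strand): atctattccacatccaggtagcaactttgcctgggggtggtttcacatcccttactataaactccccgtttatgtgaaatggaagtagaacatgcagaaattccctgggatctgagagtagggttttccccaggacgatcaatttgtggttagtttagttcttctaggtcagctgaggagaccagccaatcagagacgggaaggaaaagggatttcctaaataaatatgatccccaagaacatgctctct
Cxcl10 (chr5:92348890-92349139, minus strand): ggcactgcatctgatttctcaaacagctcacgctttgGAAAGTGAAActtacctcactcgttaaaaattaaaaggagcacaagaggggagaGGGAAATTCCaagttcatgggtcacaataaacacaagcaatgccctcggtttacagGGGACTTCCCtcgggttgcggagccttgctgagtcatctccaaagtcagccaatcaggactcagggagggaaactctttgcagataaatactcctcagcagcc
The Cxcl12 stretch is 64.4% G or C and holds 14 CG steps, against 44.4% and 3 in the Cxcl9 stretch. Windows of 300 bases, from 250 before to 50 after a start, were given for 23 of the 32 ligands, with 26 windows in all. The ISRE letters were found for 3 of the 23, Ccl19, Cxcl10 and Cxcl14. That was 3 of the 26 windows, beside 3.44% of 32851 windows over all genes. The NF-kB letters were found for 4 of the 23, Cxcl1, Cxcl2, Cxcl3 and Cxcl10. That was 4 of the 26 windows, beside 4.01% of windows over all genes. A STAT type site (GAS: TTC, any 3 bases, GAA), searched on both strands as well, was found for Ccl17 and Cxcl14. That was 2 of the 26 windows, beside 8.3% of windows over all genes. In the ligand windows no match overlapped a match of another motif. A match is a description of letters and not a binding site.

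Of the other homeostatic and stromal ligands, Cxcl14 was lower in every old sample than in any young sample. This chemokine of fibroblasts and epithelia (chromosome 13, 56288643 to 56296551, minus strand) had 0, 8.06 and 7.81 CPM in old samples 1 to 3, against 55.2, 30.5 and 16.5 CPM in young samples 1 to 3. The log2 fold change was −2.68 (95% interval −5.97 to 0.60), with edgeR adjusted p = 0.891, so the difference did not pass. The summed fibroblast markers were 2587, 2892 and 3069.9 CPM in old samples, against 8199, 6073 and 5334 CPM in young samples, and did not overlap between ages either. The part of fibroblast RNA in the Cxcl14 difference was not tested.

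Ccl19, which shares the receptor CCR7 with CCL21, had 12.1, 5.45 and 16.7 CPM in old samples, against 8.69, 16.1 and 5.54 CPM in young samples. The ages overlapped fully, and the log2 fold change was 0.17 (95% interval −1.91 to 2.26). Of the 31-base words in its transcripts, 58.8% also occur in other genes, among them the pseudogene Ccl19-ps3, so its estimates are uncertain. Ccl27a, the ligand of CCR10, had 1.12, 13.3 and 18 CPM in old samples, against 2.30, 7.11 and 21.3 CPM in young samples. It is uncertain too, because 57.0% of its words are shared with other genes and its exons overlap Il11ra1 on the other strand. The remaining homeostatic ligands were low or found in few samples. Ccl28 had at most 2.98 CPM in any sample, Cxcl13 had 20 counts in young sample 1 and 1 or 0 elsewhere, and Ccl25 had 107 and 50 counts in young samples 2 and 3 and 0 elsewhere. A count of 0 in an old sample allows up to 0.146 to 0.224 CPM, taking 3 counts as the limit, which covers counting error only.

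Cx3cl1 and Cxcl16 are made as membrane proteins with a chemokine head on a stalk, and can be cut off by the proteases ADAM10 and ADAM17. Cx3cl1 (fractalkine; chromosome 8, 94772009 to 94782427, plus strand), the ligand of CX3CR1, had 56.2, 189 and 93.0 CPM in old samples 1 to 3, against 86.2, 66.5 and 54.5 CPM in young samples 1 to 3. Old sample 1 lay just above the lowest young sample, while the other old samples were above all young samples. The log2 fold change was 0.71 (95% interval −0.39 to 1.81), with edgeR adjusted p = 0.922, and it was 0.11 without old sample 2. Cx3cl1 lies between Ccl22 and Ccl17 within chromosome 8, 94745590 to 94812036. Those neighbours, which attract CCR4-bearing T cells, had a count in 1 old and 1 young sample each and did not pass the filter, with 139 counts of Ccl22 in young sample 3 as the highest.

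Cxcl16 (chromosome 11, 70453983 to 70459984, minus strand), the ligand of CXCR6 and a scavenger receptor for oxidised lipoprotein, had the log2 fold change nearest 0 of the singly described ligands. It had 35.8, 36.2 and 56.5 CPM in old samples, against 33.4, 57.6 and 40.9 CPM in young samples. The log2 fold change was −0.04 with a 95% interval of −1.16 to 1.09, so a change in either direction within those bounds is compatible with the data. Its exons overlap Zmynd15 on the other strand, with 18.5% of its 31-base words shared, and because strand use is not given, reads from that stretch cannot be assigned to either gene. Of the sheddases, Adam17 had 44.6, 58.2 and 62.3 CPM in old samples, against 119, 127 and 84.6 CPM in young samples, with no overlap. Its log2 fold change was −1.0 (95% interval −1.83 to −0.17), with edgeR unadjusted p = 0.0229 and adjusted p = 0.882. Adam10, named as the other sheddase, had a log2 fold change of 0.18 and means of 205 ± 37.8 CPM in old cells and 181 ± 15.5 CPM in young cells (SD, n = 3 each).

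**Figure D3:**
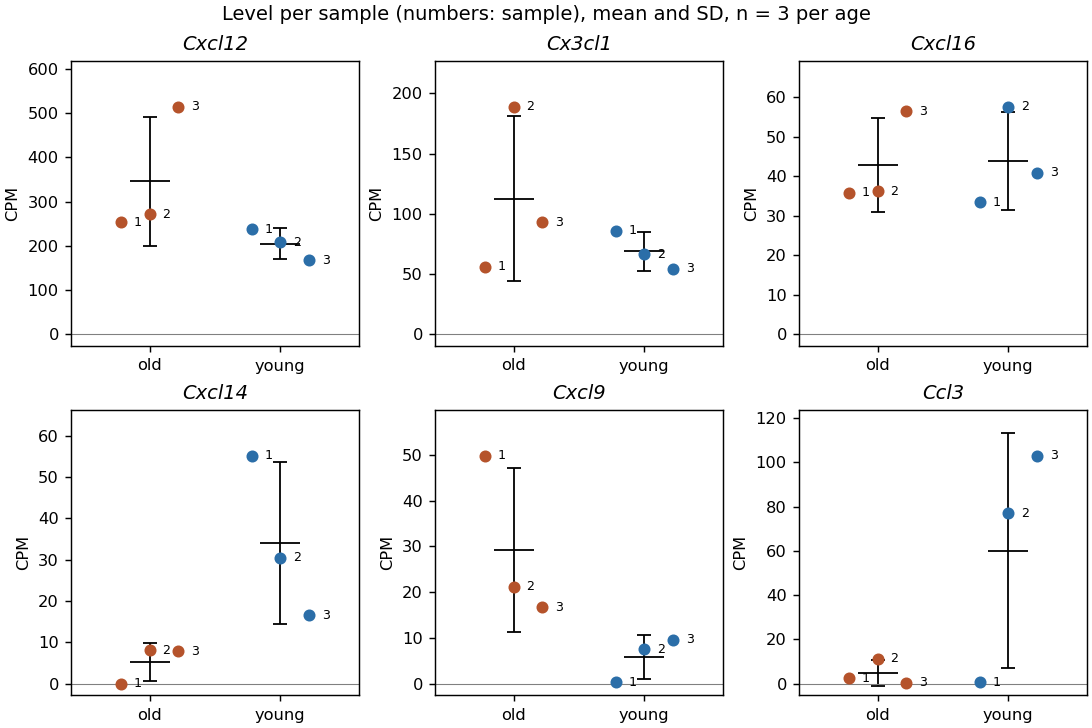
CPM in each sample for 6 ligands, old samples left of young samples, with the sample number beside each point, the mean as a bar and the SD as whiskers (n = 3 per age). Cxcl12 and Cxcl9 do not overlap between ages and are higher in old cells, Cxcl14 does not overlap and is lower, and Ccl3 is low in all old samples and in young sample 1.

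The CXCR3 ligands Cxcl9, Cxcl10 and Cxcl11 are induced by interferon and draw activated T cells and natural killer cells. They lie side by side on chromosome 5, from 92321347 to 92365485. Cxcl9 had 49.8, 21.2 and 16.7 CPM in old samples 1 to 3, against 0.310, 7.52 and 9.59 CPM in young samples 1 to 3. Every old sample was above every young sample, although the lowest old value was less than 2-fold above the highest young one. Means were 29.3 ± 18 CPM in old cells and 5.8 ± 4.87 CPM in young cells (SD, n = 3 each). The log2 fold change was 2.33 (95% interval −0.30 to 4.96), with edgeR unadjusted p = 0.0759 and adjusted p = 0.891. It was 1.70 without old sample 1 and 1.77 without young sample 1.

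Cxcl10 had 5.76, 10.2 and 2.15 CPM in old samples, against 0.0621, 9.95 and 1.31 CPM in young samples. The ages overlapped, and young sample 2 reached the level of old sample 2. The ISRE and NF-kB letters in the Cxcl10 stretch printed above lie 213, 159 and 103 bases before the start. Cxcl11 averaged under 5 CPM and is singled out after its values were seen. It had 1.5, 0.654 and 6.30 CPM in old samples, against 0.186, 0.559 and 0.180 CPM in young samples, with no overlap and edgeR adjusted p = 0.888. GENCODE lists Cxcl11 of this reference strain as a polymorphic pseudogene, and 42.2% of its 31-base words are shared with other genes, mainly Gm2673 on the other strand. The 3 genes together summed to 57.1, 32 and 25.2 CPM in old samples, against 0.559, 18 and 11.1 CPM in young samples. Their receptor Cxcr3 had 28, 33 and 1 counts in old samples and 0 in each young sample, too few for the filter. The T cell receptor gene Trbc2 had 98, 72 and 2 counts in old samples and 0 in each young sample. The other T and NK cell markers overlapped between ages. Cd3g had 2, 1 and 177 counts in old samples, against 89, 20 and 4 in young samples. Cd3e had 0, 57 and 39 against 0, 0 and 22, Trac 0, 6 and 23 against 0, 4 and 0, and Klrb1c 0, 0 and 2 against 0, 21 and 5. The 5 T and NK cell markers in the table summed to 7.48, 9.88 and 11.9 CPM in old samples, against 5.52, 2.29 and 1.40 CPM in young samples. At least 1 of them was at 0 in every sample except old sample 3. Trbc2 alone made up 7.33 CPM of the sum in old sample 1, so the lack of overlap between ages rested on that gene. In old sample 2 it made up 5.23 CPM. In old sample 3 it had only 0.0976 CPM, and Cd3g made up 8.64 CPM of the sum. The part of lymphocyte RNA in the Cxcr3 and CXCR3 ligand levels was not tested.

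Ccl3, Ccl4 and Ccl9, CC ligands made by macrophages, had their highest levels in young samples 2 and 3. Ccl3 (MIP-1 alpha; chromosome 11, 83647844 to 83649355, minus strand), a product of activated macrophages and microglia, had 2.47, 11.3 and 0.439 CPM in old samples 1 to 3, against 0.496, 76.9 and 103 CPM in young samples 1 to 3. The ages overlapped, because young sample 1 was about as low as old sample 3. The log2 fold change was −3.67 (95% interval −7.39 to 0.05), with edgeR unadjusted p = 0.0527 and adjusted p = 0.888, and it was −5.39 without old sample 2. Ccl4 (MIP-1 beta), its neighbour and also a macrophage product, had 0.599, 8.57 and 0.0488 CPM in old samples, against 0, 20.9 and 49.1 CPM in young samples. Ccl9, a ligand of CCR1 found in rodents, had 2.39, 25.2 and 6.59 CPM in old samples, against 0.683, 46.8 and 33.5 CPM in young samples. In all 3 of these genes old sample 2 was the highest old sample and young sample 1 was the lowest young sample.

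The summed macrophage markers without Mrc1 were also highest in old sample 2 among old samples and lowest in young sample 1 among young samples. The order of old samples 1 and 3 differed: the sums were 133 and 715 CPM, while Ccl3 and Ccl4 were higher in old sample 1. Of the single markers, Aif1 was highest among old samples in old sample 1, and Lyz2 and Tyrobp in old sample 3. Mrc1, left out of these sums, was highest among old samples in old sample 3, and the other markers were highest in old sample 2. Ccl3, Ccl4, Ccl5, Ccl6 and Ccl9, which all lie within chromosome 11, 83525778 to 83664683, summed to 6.36, 56.9 and 32.6 CPM in old samples, against 10.2, 158 and 199 CPM in young samples. The macrophage part in these levels was not tested. Ccl6, another rodent ligand of CCR1, did not have this pattern: it had 0.224, 11.2 and 20.6 CPM in old samples, against 9.06, 11.2 and 13.1 CPM in young samples. Ccl5 (RANTES), a T cell product, had at most 4.98 CPM in an old sample and 1.98 CPM in a young sample.

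**Figure D4:**
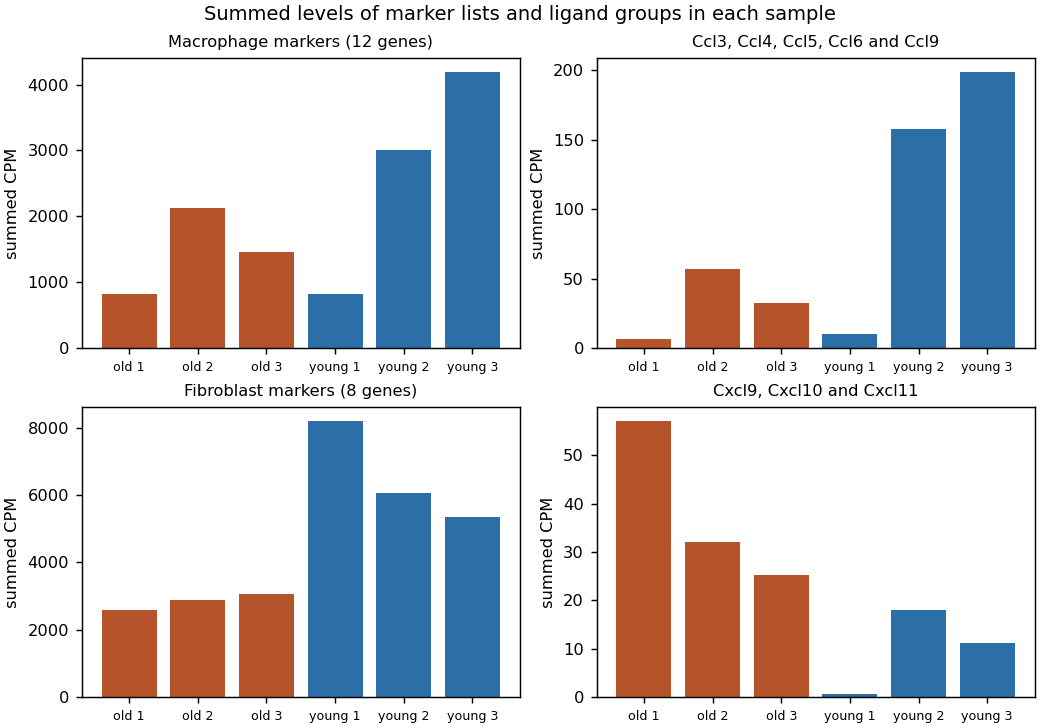
Summed CPM per sample of 12 macrophage markers, of 5 CC ligands of the Ccl3 group, of 8 fibroblast markers and of 3 ligands of CXCR3, with old samples on the left. Young samples 2 and 3 have the largest macrophage and Ccl3 group sums, at 3009 and 4194 CPM and at 158 and 199 CPM, while the CXCR3 ligands are largest in old samples.

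The monocyte and eosinophil attractants had no shared direction. Ccl2 (MCP-1), the main ligand of CCR2 on monocytes, had 0.374, 6.76 and 9.13 CPM in old samples 1 to 3, against 11.5, 14.1 and 21.8 CPM in young samples 1 to 3. No old sample reached a young one, but old sample 3 and young sample 1 were close, and the log2 fold change of −1.54 (95% interval −4.17 to 1.09) had edgeR adjusted p = 0.932. Unlike Ccl3, Ccl2 was not low in young sample 1. Ccl8, which acts on CCR8 in mice, had 2.54, 11.3 and 11.9 CPM in old samples, against 3.16, 4.77 and 0.270 CPM in young samples. Ccl7 (MCP-3), also a ligand of CCR2, had 8.31, 1.09 and 0.391 CPM in old samples, against 0.0621, 5.59 and 13.2 CPM in young samples. Each of these was spread over more than 10-fold within an age, apart from Ccl2 in young samples and Ccl8 in old samples.

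Ccl11 (eotaxin), the ligand of CCR3 on eosinophils, had 0.0748, 20.2 and 8.30 CPM in old samples, against 0.186, 21.3 and 0.540 CPM in young samples. High and near-zero samples occurred in both ages, and its biological coefficient of variation was 147%. Ccl12 and Ccl24 averaged under 5 CPM, with at most 7.12 and 0.673 CPM in an old sample and 5.69 and 2.57 CPM in a young sample. Ccl2, Ccl7, Ccl11, Ccl12 and Ccl8 lie together within chromosome 11, 82035571 to 82116799, yet the sample with the highest level differed among them: young sample 3 for Ccl2 and Ccl7, young sample 2 for Ccl11, old sample 2 for Ccl12 and old sample 3 for Ccl8.

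Each neutrophil attractant was at or under 14.5 CPM in every sample. Cxcl5, a ligand of CXCR2 made by epithelial and stromal cells, had 4.49, 9.44 and 8.59 CPM in old samples, against 3.23, 2.49 and 2.84 CPM in young samples. The ages did not overlap and the young samples were close together, and the log2 fold change of 1.40 (95% interval −0.97 to 3.77) had edgeR adjusted p = 0.932. Cxcl1 (KC) averaged 2.99 CPM in old cells and 2.19 CPM in young cells. Cxcl2 (MIP-2), an early product of activated myeloid cells, had 0 counts in every old sample, against 0, 46 and 323 counts in young samples 1 to 3, and did not pass the filter. Over the old group, 0 counts allow up to 0.0630 CPM. The promoter windows of Cxcl1, Cxcl2 and Cxcl3 all held the NF-kB type run GGGAATTTCCC, beginning 71, 97 and 73 bases before the start. Cxcl15, known from the mouse lung, had 1 to 19 counts in old samples and 6 to 17 in young samples.

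**Figure D5:**
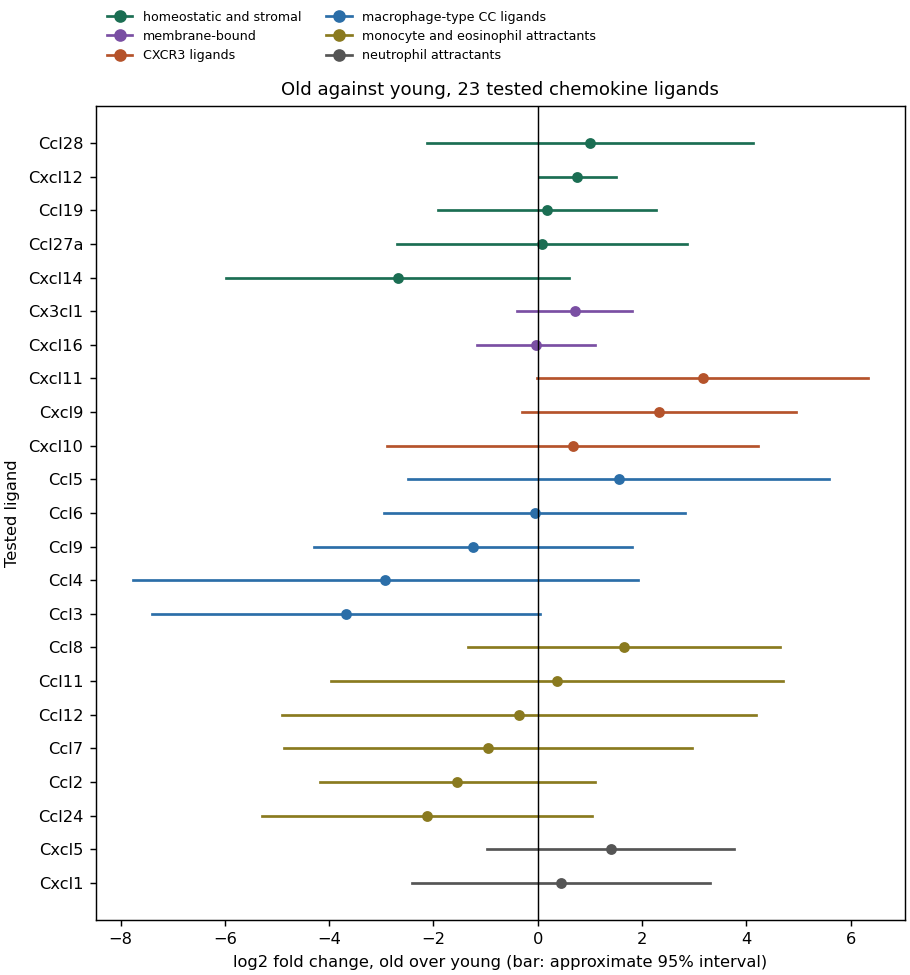
Log2 fold change, old over young, of the 23 tested ligands as points, with approximate 95% intervals as bars and colour by role. The interval of Cxcl12, from 0.02 to 1.5, is the only one that leaves out 0 before adjustment, and those of most other ligands span several log2 units.

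Of 17 receptors that signal listed, 14 were in the table and 7 were tested; edgeR called 0 of the 7, as DESeq2 and limma-voom did, and at an unadjusted p under 0.05 it counted 0. Their median log2 fold change was −0.51, with 2 positive and 5 negative, against 0.02 over all tested genes. Cx3cr1, the fractalkine receptor of microglia and macrophages, had 11.0, 161 and 11.5 CPM in old samples, against 6.21, 427 and 494 CPM in young samples. It was high in young samples 2 and 3 and low in young sample 1, as the summed macrophage markers without Mrc1 were. The macrophage part in these values was not tested. Cxcr4, the signalling receptor of CXCL12, had 13.1, 3.49 and 1.17 CPM in old samples, against 0.496, 6.6 and 5.45 CPM in young samples. Its old mean rested on old sample 1, and the other old samples lay below young samples 2 and 3. Ccr2, Ccr9 and Cxcr2 averaged 13.1, 6.68 and 8.05 CPM in old cells, against 17.2, 6.39 and 15.0 CPM in young cells. Ccr7, the receptor of Ccl19, had 0.449, 3.12 and 1.27 CPM in old samples, against 0, 0 and 14 CPM in young samples, so that all its young counts came from 1 library. Ccr1, Ccr3, Ccr10 and Cxcr6, receptors of ligands above, did not pass the filter. They had at most 0.872, 0, 0.224 and 7.48 CPM in an old sample, against 2.39, 1.44, 0.993 and 4.37 CPM in a young sample. Ccr4 and Cxcr5 were also below the filter, Xcr1 was tested at 1.51 to 2.24 CPM in old samples and 1.61 to 3.29 CPM in young samples, and Ccr6, Ccr8 and Cxcr1 were not analysed here.

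Of the receptors that remove chemokines, Ackr3, which takes up CXCL12 and CXCL11, had 41.3, 34.7 and 53.9 CPM in old samples, against 29.1, 19.5 and 9.95 CPM in young samples, with no overlap. Ackr2, a scavenger of inflammatory CC chemokines known from lymphatic endothelium, had 155, 97.3 and 479.7 CPM in old samples, against 110.4, 59.1 and 52.3 CPM in young samples. Its ages overlapped, and old sample 3 stood far above the others, as it did for Cxcl12. Gpr182, an endothelial receptor that binds several chemokines, had 103, 197 and 247 CPM in old samples, against 29.8, 59.0 and 55.7 CPM in young samples. Log2 fold changes were 1.15, 1.72 and 1.92 for Ackr3, Ackr2 and Gpr182, with edgeR adjusted p = 0.891, 0.858 and 0.687. DESeq2 called Gpr182 with an adjusted p = 0.0143 and no other receptor, beside 0.844% of all genes tested. Ccrl2, an atypical receptor of myeloid cells, had at most 1.38 CPM in an old sample and 15.4 CPM in a young sample. Of the 6 atypical receptors listed, 5 were tested and edgeR called 0 of them, with 2 at an unadjusted p under 0.05, both higher in old cells, where the background was 2.86%. Ackr1 had at most 1.07 CPM in an old sample and 7.57 CPM in a young sample, and Ackr4 did not pass the filter.

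Genes that cut or trim chemokines were tested as a list of 16, of which 14 were in the table and 12 passed the filter. None was called by edgeR, DESeq2 or limma-voom, 6 had a positive and 6 a negative log2 fold change, and the median was −0.01. At an unadjusted p under 0.05 edgeR counted 2 of the 12, Adam17 and Timp3, beside 5.56% of all genes tested. Timp3, an inhibitor of ADAM17 and matrix metalloproteases, had 3406, 2585 and 3774 CPM in old samples, against 2046, 1908 and 1761 CPM in young samples. The ages did not overlap, and the log2 fold change was 0.77 (95% interval 0.38 to 1.17), with edgeR unadjusted p = 0.00169 and adjusted p = 0.687. Plau, the urokinase, had a log2 fold change of 0.77 and Mmp2, a gelatinase that trims CXCL12, one of −1.09, and both overlapped between ages. Mmp9 overlapped as well, with means of 2.04 CPM in old cells and 7.75 CPM in young cells. Dpp4, the peptidase that inactivates CXCL12 by removing its first residues, averaged 14.6 ± 9.66 CPM in old cells and 7.88 ± 5.70 CPM in young cells (SD, n = 3 each).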

How the data were processed

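The table held estimated counts per gene, deposited by the authors for 3 old and 3 young samples. FastQC, Salmon and the build mm10 are listed without versions, per the submitters' processing notes. Annotation, gene summarisation and strandedness are not given in the sources at hand. The counts were whole already, so rounding changed nothing. Of 22964 Ensembl identifiers, 22738 had a symbol in GENCODE M21 (GRCm38), which also gave positions (1-based) and exon lengths. Amplification and fragment bias can distort levels per length.

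Genes were tested in R 4.3.3 with edgeR 4.0.16: filterByExpr (minimum count 10, minimum total 15), which kept 15394 genes, TMM factors, and a robust two-sided quasi-likelihood test on age without covariates. P-values were adjusted by Benjamini-Hochberg over all tested genes, at 0.05. Intervals are log2 fold change ± t quantile times SE and are approximate. DESeq2 1.42.0, limma-voom (limma 3.58.1) and the settings in the closing section were alternatives. Library pairs differed far beyond sampling noise. Deviations of samples that share a replicate number correlated at 0.08, 0.06 and −0.01, so the numbers were not used as pairs. The members, gene lists and motifs were chosen with earlier results of these data known. Ligands that were tested and averaged at least 5 CPM in either age were described singly, 17 in all. Receptors of those ligands and Adam10 were named as well, with up to 6 further genes per receptor or processing list, by smallest p. Results for 1 further receptor gene are not reported here.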

Additional observations from a re-analysis of the deposited data

How the results depend on the processing

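No ligand was called under any of the 13 alternatives, and no processing gene. Over all genes, edgeR called 0, DESeq2 130, limma-voom 3, and edgeR without single samples 0 to 1. Of the receptors, DESeq2 called 1, Gpr182. The count of ligands at an unadjusted p under 0.05, 1 with edgeR, was 2 with DESeq2 size factors or a mean of at least 50 counts. It was 4 without a filter, 3 with DESeq2 or limma-voom, and 0 to 5 when single samples were left out. The ligands counted changed too. DESeq2 counted Ccl3, Cxcl14 and Cxcl9, limma-voom counted Cxcl14, Cxcl9 and Cxcl12, and library size only counted Ccl3. Cxcl12 left that count without old sample 3, without any 1 young sample, with library size only, with DESeq2 and with the replicate block, and over the alternatives its adjusted p ran from 0.545 to 1.00. With the replicate block, although the numbers were not found to pair the samples, the count was 0 and no gene was called. The median log2 fold change of the ligands ran from −0.29 without old sample 3 to 0.41 without young sample 2 and was −0.06 without a filter, so its sign is not stable. Library size only moved the median of all genes from 0.02 to −0.12. The sign of Ccl27a turned with library size only (−0.04), limma-voom (−0.08) and the replicate block (−0.12). When single samples were left out, log2 fold changes that turned sign ran from −0.96 to 0.51 for Ccl6, −3.09 to 0.18 for Ccl7, −0.81 to 4.67 for Ccl11, −0.21 to 0.68 for Ccl19, −0.51 to 1.2 for Ccl27a and −0.29 to 0.20 for Cxcl16; the cause was not tested. The other 11 singly described ligands kept their sign in all 13 alternatives, with ranges of −5.39 to −2.78 for Ccl3, −4.22 to −2.10 for Cxcl14 and −2.27 to −1.0 for Ccl2. Some of the 11 came near 0, with ranges of 0.06 to 3.11 for Cxcl10 and 0.11 to 1.03 for Cx3cl1. Ligands with a mean of at least 50 counts numbered 18, against 29 without a filter.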

Other observations

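Chemokines are held on the cell surface by heparan sulfate. A list of 20 genes that make, carry, edit or degrade it, among them the sulfatases Sulf1 and Sulf2 and the heparanase Hpse, was tested in full. None was called by edgeR, DESeq2 or limma-voom, 12 had a positive log2 fold change, and the median was 0.05, against 0.02 over all tested genes. At an unadjusted p under 0.05 edgeR counted 2 of the 20, Sdc3 and Gpc1, beside 5.56% of all genes. The core protein gene Hspg2 (perlecan) had 1386, 1268 and 1006 CPM in old samples, against 1108, 843 and 1053 CPM in young samples. Gpc1 (glypican 1) had 11.7, 15.9 and 8.64 CPM in old samples, against 52.2, 23.8 and 35.5 CPM in young samples, with no overlap. Sdc3 (syndecan 3) had 139, 911 and 186 CPM in old samples, against 111, 165 and 131 CPM in young samples, so that its difference rested mainly on old sample 2. Hs3st1, a heparan sulfate 3-O-sulfotransferase, had 71.3, 65.5 and 37.8 CPM in old samples, against 10.2, 34.9 and 31 CPM in young samples, also with no overlap and with edgeR adjusted p = 0.891. These genes were named after their values were seen.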
